A study of Homo sapiens with 24 samples.

Results

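The 12 A375 libraries of a series of 24 were used to ask whether doxycycline (Dox) changed gene expression differently in cells that carry a Dox-inducible hairpin against MCM7 and in cells that do not. All A375 libraries entered, in 4 groups of 3 biological replicates, and the A549 lung cancer libraries of the series were not used here. A375 is a human melanoma line. The first arm was shMCM7 cells, labelled A375_sh, which received Dox at 1 μg/ml over 72 hours (shMCM7 Dox) or no Dox (shMCM7 noDox). The second arm was parental cells, labelled A375_wt, under the same regime (parental Dox and parental noDox). All 4 groups were arrested at the G1/S boundary by a double thymidine block before their RNA was taken, so that the arrest is shared by every library. The shMCM7 cells were transduced with a lentivirus made from the inducible vector pRSIT17 and selected with puromycin as a population, not as a clone, whereas the parental cells were neither transduced nor selected. RNA from cells with a scrambled hairpin was not analysed here, so that a response to induction of any hairpin and a response to loss of MCM7 cannot be told apart.

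MCM7 is a subunit of the ring-shaped MCM2-7 helicase, which is loaded onto replication origins in the G1 phase and unwinds the DNA in S phase. Dox switches on the hairpin in the inducible vector, but it is also an antibiotic of the tetracycline family, which is known to bind bacterial and mitochondrial ribosomes. A drop in mitochondrial translation is one of the triggers of the integrated stress response, in which the transcription factor ATF4 drives genes of amino acid uptake, amino acid synthesis and one-carbon metabolism. The parental arm therefore measures what Dox does without the hairpin, and the interaction term measures what Dox does in shMCM7 cells beyond that.

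The hairpin is shown because the comparison turns on it. Its target strand, with the bases that pair with positions 2 to 8 of the guide strand in capitals, reads as follows.
shMCM7: cagaggaggatttCTACGAAa
The 21 bases matched 5 transcripts of 1 gene, MCM7, in GENCODE 29 (GRCh38). In the principal transcript the match lies in the coding sequence on the minus strand of chromosome 7. It takes the last 3 bases of exon 8 (100097834 to 100097836) and the first 18 bases of exon 9 (100097728 to 100097745) out of 15 exons.

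Each library was measured as reads counted per gene. The libraries held 146656792 to 283721575 counts. Levels are given as CPM, counts scaled to a common library size, on which 3 counts correspond to 0.0106 to 0.0205 CPM, and of the genes in the files 16334 passed the filter on low counts and were tested. The melanoma marker SOX10 was at 500.9 to 677.1 CPM and MITF at 26.7 to 45.1 CPM in all libraries, whereas the pigment cell antigen MLANA and the pigment enzyme TYR never passed 2 counts. The melanocyte list summed to 1324 to 1439.7 CPM in shMCM7 Dox and to 1080.5 to 1254.3 CPM in the other libraries. Its member AXL alone averaged 570.4 CPM in shMCM7 Dox, and 334.6, 295.2 and 271 CPM in shMCM7 noDox, parental Dox and parental noDox. Of the 10 melanocyte markers tested, 5 had an interaction above 0 and 5 below, with a median of -0.032. Of the lung epithelium markers of A549, EPCAM stayed at or below 0.837 CPM and SFTPB at or below 4 counts, but the keratins KRT18, KRT8 and KRT7 were at 199.8 to 366.7, 60.6 to 93.9 and 13.9 to 25.5 CPM. The list of 12 summed to 381.2 to 491 CPM in shMCM7 Dox, 365 to 426.2 CPM in shMCM7 noDox and 292.4 to 311.9 CPM in parental cells. In the interaction, EPCAM (0.91) and AKR1B10 (1.04) were called higher and AKR1C1 (-0.6) lower. Of the 11 lung markers tested, 4 had an interaction above 0 and 7 below, with a median of -0.3. The part of these markers in the results was not tested. One library stood apart from its group. The shMCM7 noDox replicate 1 had less MCM7 than the other replicates of its group, so that the main counts are also given without it. On the first principal component it was at -2.3, and replicates 2 and 3 were at 4.6 and 6.3. The shMCM7 Dox libraries were at -51.3 to -46.5 and the parental libraries at 21.5 to 25.1, so that the whole shMCM7 noDox group lay between them.

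For each gene, 3 differences were taken from 1 fit over the 12 libraries on the log2 scale: the Dox effect in shMCM7 cells, the Dox effect in parental cells, and the interaction, which is the first minus the second. Calls needed a 1.5-fold change or more together with p under 0.01 and a false discovery rate (FDR) under 0.05. The test was the quasi-likelihood test of edgeR, adjusted after Benjamini and Hochberg, and all adjusted p-values are from it unless another is named.

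MCM7 itself fell with Dox in shMCM7 cells and had no called Dox effect in parental cells. Its level was 76.8, 76.4 and 77.2 CPM in shMCM7 Dox, 131.4, 353.4 and 358.6 CPM in shMCM7 noDox, 369.8, 354.7 and 356.9 CPM in parental Dox, and 352.3, 341.7 and 351.9 CPM in parental noDox. The 3 shMCM7 Dox libraries lay below the other 9, and shMCM7 noDox replicate 1 was the only other library below 300 CPM. The interaction of MCM7 was -1.92 ± 0.35 (SE, adjusted p = 0.00111 by edgeR's quasi-likelihood test), made of -1.87 ± 0.25 in shMCM7 cells and 0.048 ± 0.24 in parental cells. Without shMCM7 noDox replicate 1 the interaction was -2.25. MCM7 (chromosome 7, 100092728 to 100101940, minus strand) overlaps AP4M1 on the other strand, and the strand setting of the counting is not given in the sources used here.

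**Figure D1:**
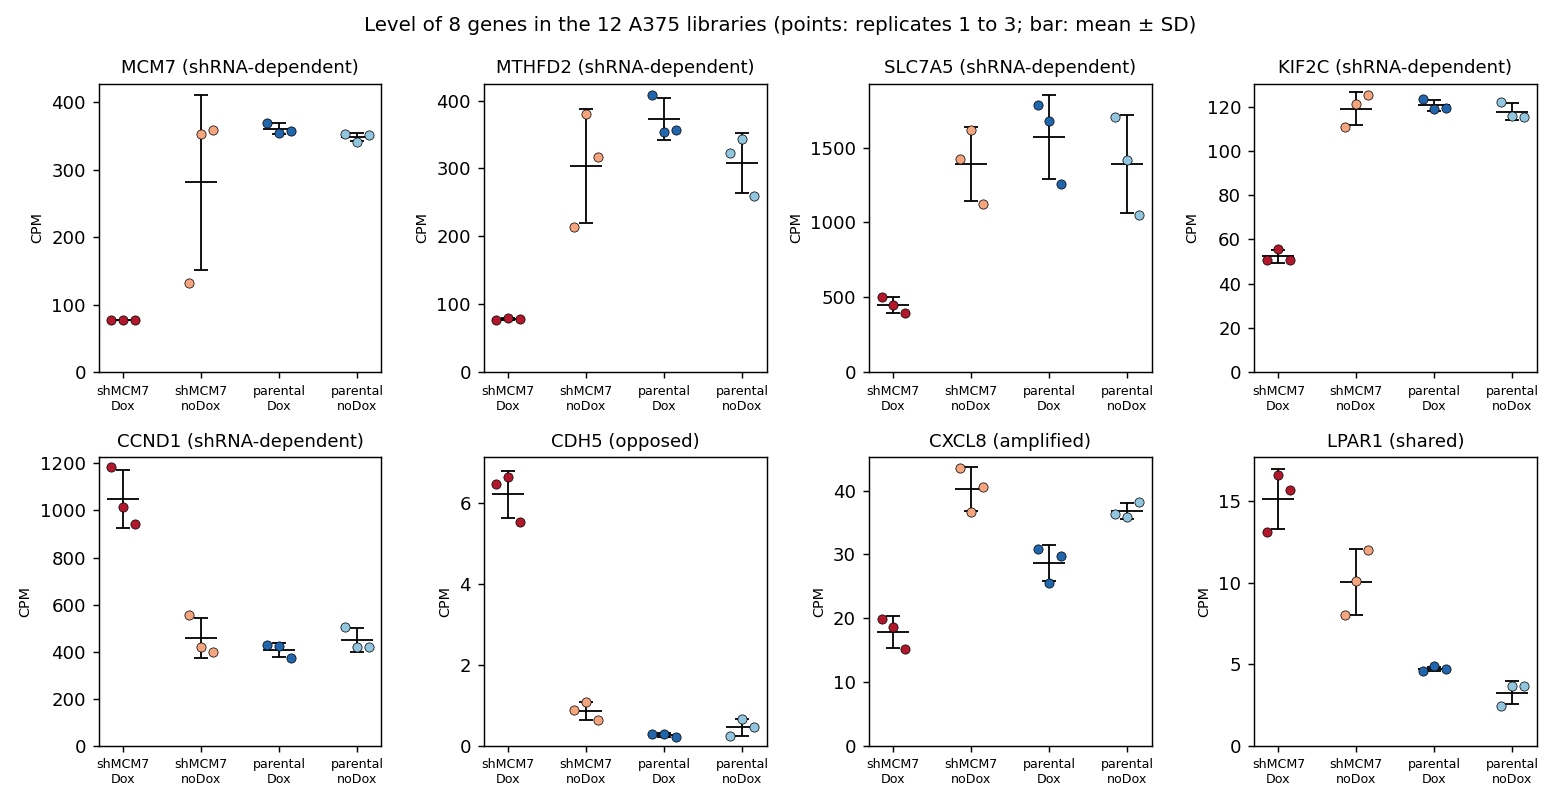
The CPM of 8 genes (y axis, starting at 0) in the 4 groups (x axis), with 1 point per library, replicates 1 to 3 from left to right, and a bar for the mean ± SD. The shMCM7 Dox libraries lie below all others for MCM7, MTHFD2, SLC7A5, KIF2C and CXCL8 and above all others for CCND1, CDH5 and LPAR1. The parental Dox libraries lie above parental noDox without overlap for MCM7, MTHFD2 and LPAR1, and below for CXCL8.

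Across all genes, 713 (4.37% of those tested) were called higher in the interaction and 1007 (6.17%) lower. Within shMCM7 cells, Dox raised 912 genes (5.58%) and lowered 1070 (6.55%), 12.1% in all. Within parental cells, edgeR's quasi-likelihood test called 0 genes in either direction (0%), with a smallest adjusted p of 0.184, while 1156 genes (7.08%) had an unadjusted p under 0.05. DESeq2's Wald test called 4 genes higher and 0 lower in parental cells, and edgeR's likelihood ratio test called 6 and 0. Without the fold limit, 53 genes had an FDR under 0.05 in parental cells by the Wald test and 24 by the likelihood ratio test. Without shMCM7 noDox replicate 1, the interaction called 822 genes higher and 1091 lower.

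The interaction calls came from the induced shMCM7 cells. In 1644 of the 1720 genes called (10.5% of those tested), which is 95.6% against 70.1% of all genes, shMCM7 Dox was the group farthest from the mean of the other 3, whereas shMCM7 noDox was in 48, parental Dox in 14 and parental noDox in 14. The 3 shMCM7 Dox libraries lay above all other 9 in 645 of the 713 genes called higher (90.5%, background 19.5%) and below all other 9 in 924 of the 1007 called lower (91.8%, background 21.3%). The size of the Dox effect in shMCM7 cells exceeded that in parental cells in 1691 of the 1720 (98.3%), with medians of 0.83 and 0.098 on the log2 scale. These shares describe the calls, since the interaction is computed from the same libraries.

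The 2 arms share no library, so that they can be set side by side. Of the 912 genes that rose with Dox in shMCM7 cells, 42 (4.61%) were higher and 13 (1.43%) lower in parental Dox at an unadjusted p under 0.05, against 4.36% and 2.72% of all genes tested. Of the 1070 that fell, 35 (3.27%) were higher and 12 (1.12%) lower. Without shMCM7 noDox replicate 1, 49 of the 1144 genes that fell (4.28%) were higher and 29 (2.53%) lower in parental Dox. Over all 16334 genes, Pearson's r between the Dox effects of the 2 arms was -0.00589 and Spearman's rho -0.0046, a description across genes, which are not independent replicates.

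Genes were placed in exclusive classes by which arm carried the response. In shRNA-dependent genes, the interaction and the shMCM7 effect were called in the same direction and the parental effect had an unadjusted p of 0.05 or more. In opposed genes, the interaction was called and the arms went opposite ways, the shMCM7 effect at an FDR under 0.05 and the parental effect at an unadjusted p under 0.05. Amplified genes had called interaction and shMCM7 effects and a parental effect of the same sign at an unadjusted p under 0.05. Shared genes had the same 2 effects, but their interaction missed an FDR of 0.05. Parental-led genes had a called interaction and a parental effect at an unadjusted p under 0.05, while the shMCM7 effect missed an FDR of 0.05. There were 1386 shRNA-dependent genes (582 higher and 804 lower), 111 opposed (30 higher and 81 lower in shMCM7 Dox), 18 amplified (12 higher and 6 lower), 27 parental-led (18 higher and 9 lower in parental Dox) and 21 shared (17 higher and 4 lower). A further 178 interaction calls met none of these definitions, and 509 genes called in shMCM7 cells could be placed neither as shared nor as different. No parental effect passed an FDR of 0.05 by edgeR's quasi-likelihood test. When the parental effect was held to that limit in this test, the opposed, amplified, parental-led and shared classes each held 0 genes. Those 4 classes therefore rest on unadjusted p-values. The opposed class is also favoured by its construction, since a gene whose parental effect goes against the shMCM7 effect has the larger interaction.

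**Figure D2:**
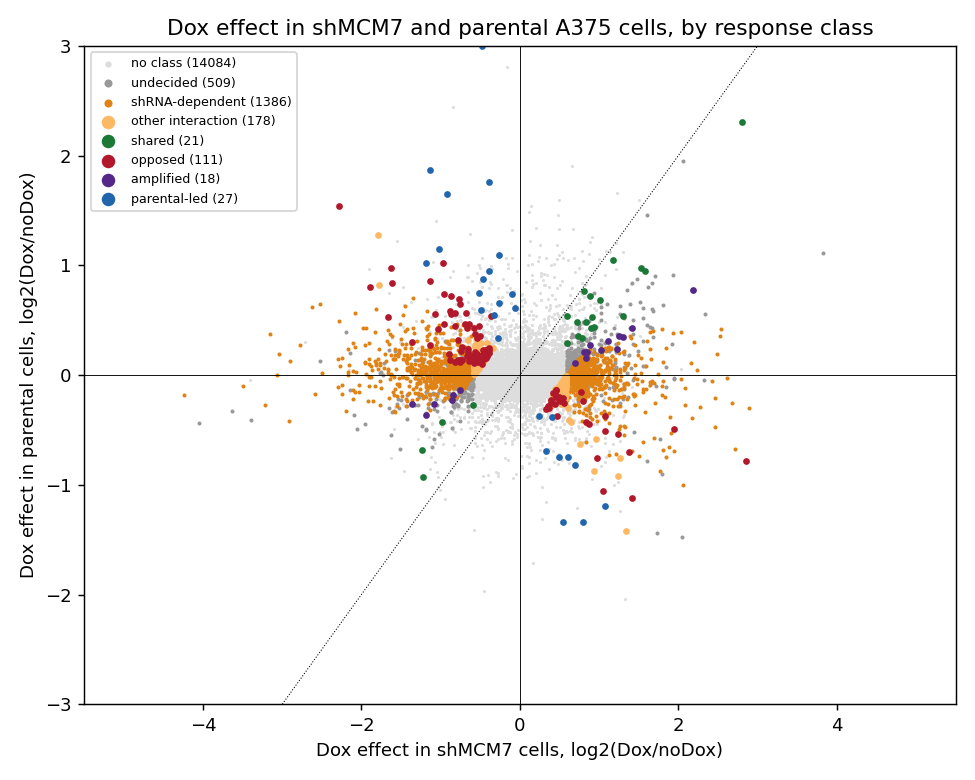
The Dox effect in parental cells (y axis) against that in shMCM7 cells (x axis), both log2(Dox/noDox), with 1 point per gene tested, coloured by response class, and with equal effects on the dotted line (5 genes lie outside the axes). The 1386 shRNA-dependent genes lie left and right along the horizontal line of no parental effect, and the 21 shared genes lie nearest to the dotted line.

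The shRNA-dependent genes had a median Dox effect of 0.855 in shMCM7 cells and -0.0248 in parental cells where they rose, and of -0.922 and 0.0372 where they fell. Between shMCM7 noDox and parental noDox, 43 of the 582 and 27 of the 804 were called. These shares of 7.39% and 3.36% lie above the 2.04% of all genes called in either direction. Of the 582, 39 were called higher and 4 lower in shMCM7 noDox, and of the 804, 9 higher and 18 lower. Between shMCM7 Dox and parental Dox, 533 of the 582 were called higher (background 7.55%) and 756 of the 804 lower (background 8.45%), which follows largely from how the class was chosen on the same libraries.

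The largest interaction among the named shRNA-dependent genes that rose belonged to FXYD7, a small regulator of the sodium pump. Its level was 6.37, 4.93 and 6.17 CPM in shMCM7 Dox, 1.3, 0.922 and 0.939 CPM in shMCM7 noDox, 0.562, 0.7 and 0.745 CPM in parental Dox, and 0.776, 0.679 and 0.889 CPM in parental noDox. All 9 other libraries were below the induced ones, and the interaction was 2.68 ± 0.23 (adjusted p = 9.95e-06). CEND1, which promotes cell cycle exit in neuronal cells, was at 32.2, 20.5 and 26.8 CPM in shMCM7 Dox and at 3.46 to 7.58 CPM in the other 9 libraries, the highest of which was shMCM7 noDox replicate 1 (interaction 2.48 ± 0.34, adjusted p = 0.000157). EDN1, the vasoconstrictor peptide endothelin, rose by 2.17 ± 0.36 more in shMCM7 cells than in parental cells (adjusted p = 0.000657), from a mean of 0.797 to 4.59 CPM. CLSTN2 and CSMD2, membrane proteins of the nervous system, had 2.2 and 2.07, and ZSCAN4, a factor of the early embryo, was in the same range.

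Of the named shRNA-dependent genes that fell, SLC13A5, the plasma membrane citrate carrier, had the largest interaction. It was at 0.255, 0.395 and 0.281 CPM in shMCM7 Dox, 2.21, 3.87 and 4.22 CPM in shMCM7 noDox, 5.45, 4.87 and 3.98 CPM in parental Dox, and 5.11, 4.89 and 5.29 CPM in parental noDox. The induced libraries lay below all others, with shMCM7 noDox replicate 1 next above them, and the interaction was -3.39 ± 0.31 (adjusted p = 1.08e-05). SLC13A5 overlaps C17orf100 on the other strand. CRISPLD1, a secreted protein, showed the same order, with 2.71 to 3.05 CPM in shMCM7 Dox, 6.57 CPM in shMCM7 noDox replicate 1 and 14.3 to 17.1 CPM in the other 8 libraries (interaction -2.14 ± 0.32, adjusted p = 0.000298). The protease inhibitor relative SERPINB5, the calcium-binding CALB1 and the complement component C7 had interactions of -2.65, -1.96 and -1.97.

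The smallest interaction p-values of all belonged to SUV39H1 and UNC5B, which were chosen after their values were seen. SUV39H1, a methyltransferase of lysine 9 on histone H3, was at 22.4, 22.3 and 22.1 CPM in shMCM7 Dox and at 46.5 to 54.1 CPM in the other 9 libraries, with an interaction of -1.24 ± 0.078 (adjusted p = 1.85e-06). UNC5B, a netrin receptor, was at 2.73, 2.88 and 2.45 CPM in shMCM7 Dox and at 8.38 to 12.1 CPM elsewhere, with -1.9 ± 0.12. For SUV39H1 the other 3 groups overlapped, whereas for UNC5B the shMCM7 noDox libraries (8.38 to 10 CPM) lay just below the parental ones.

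Among the genes of cell cycle entry and growth signalling, CCND1, which encodes cyclin D1 (chromosome 11, 69641087 to 69654474), was at 1184.8, 1016.2 and 942.2 CPM in shMCM7 Dox, against 397.9 to 557.5 CPM in shMCM7 noDox, 371.4 to 427.1 CPM in parental Dox and 418.5 to 506.7 CPM in parental noDox. No library of the other groups reached the induced level, and the interaction was 1.33 ± 0.17 (adjusted p = 0.000107). It was 1.51 without shMCM7 noDox replicate 1, the highest of its group. CCND1 overlaps LTO1 on the other strand. DUSP5, a phosphatase that is induced by ERK and switches it off, had an interaction of 0.71 ± 0.11 (adjusted p = 0.000477). In the list of MAPK output genes 3 of 22 were called higher, CCND1, DUSP5 and MYC, and 0 lower (4.37% and 6.17% of all genes). CDKN1A, the p53-induced inhibitor of cyclin-dependent kinases, had -0.72 ± 0.073 (adjusted p = 2.24e-05). Its list of p53 target genes held 0 calls higher and 3 of 29 lower (4.37% and 6.17% of all genes). The others were GDF15, which is also in the stress response list, and PHLDA3. PHLDA3 was not called without parental Dox replicate 2 or parental noDox replicate 3 (-0.58 in both). The p53 list as a whole had a median interaction of 0.084, with 10 genes higher and 9 lower at an unadjusted p under 0.05. Over all 16334 genes tested, 3149 were higher and 3634 lower in the interaction at that limit. Without shMCM7 noDox replicate 1, 1 p53 target was called higher.

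In the PI3K list, 5 of 38 genes were called higher in the interaction and 2 lower (4.37% and 6.17% of all genes, so that the lower calls were no more frequent than over all genes). Those called lower were the regulatory subunits PIK3R2 and PIK3R3, with interactions of -1.61 ± 0.21 (adjusted p = 0.000109) and -1.44 ± 0.25 (adjusted p = 0.000853). PIK3R2 was at 33.5, 28.5 and 32.6 CPM in shMCM7 Dox, 63.7, 105.1 and 110.1 CPM in shMCM7 noDox and 103.7 to 117.1 CPM in the 6 parental libraries, so that shMCM7 noDox replicate 1 again lay between. Both genes overlap another gene on the same strand, a read-through transcript for PIK3R3, so that their counts are uncertain where reads were shared. Of those called higher, GSK3B, the glycogen synthase kinase, had 0.79 ± 0.073 (adjusted p = 1.23e-05) and IRS1, an adaptor of the insulin receptor, 0.6 ± 0.11 (adjusted p = 0.00115). IRS2, a second such adaptor, and PIK3R6, a regulatory subunit, were also called higher. The call of IRS1 was lost without parental Dox replicate 3 (0.52), parental noDox replicate 1 (0.56) or shMCM7 Dox replicate 1 (0.54), each below the fold limit, and the count of 5 was 3 without parental Dox replicate 3.

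In the list of extracellular matrix glycoproteins, proteoglycans and laminins, 7 of 62 were called higher and 10 lower, against 4.37% and 6.17% of all genes, to which the counts of the adhesion lists below also compare. LOXL2, a collagen cross-linking oxidase, had an interaction of 0.65 ± 0.091 (adjusted p = 0.000192), which fell below the fold limit without shMCM7 Dox replicate 3 (0.58, not called). LOXL2 overlaps ENTPD4 on the same strand. The cartilage proteoglycan ACAN and the matrilin MATN3 had -1.5 ± 0.19 and -1.75 ± 0.21 (adjusted p = 0.000109 and 7.01e-05). Of 32 collagens, 4 were called higher and 2 lower. COL13A1, a transmembrane collagen, had 1.24 ± 0.12 and COL12A1, a fibril-associated one, 0.83 ± 0.086 (adjusted p = 2.03e-05 and 2.58e-05). Without parental Dox replicate 3, 7 collagens were called higher, without parental Dox replicate 1, 7 were called lower, and without shMCM7 Dox replicate 1 there were 6 and 4. Of the integrin and focal adhesion genes, 3 of 32 were called higher, among them the kinase PTK2 at 0.68 ± 0.073 (adjusted p = 3.24e-05), and 2 lower, among them the integrin ITGB8 at -1.31 ± 0.15 (adjusted p = 4.31e-05), a share of lower calls near that of all genes. MMP3, a matrix metalloproteinase, and TIMP2, a metalloproteinase inhibitor, were both higher, with 1.65 ± 0.32 (adjusted p = 0.00174) and 0.69 ± 0.11 (adjusted p = 0.00044). TIMP2 overlaps CEP295NL on the same strand. In their list 2 of 21 were called higher and 0 lower, against 3 and 3 without shMCM7 noDox replicate 1.

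YAP and TEAD are the nuclear effectors of the Hippo pathway. Of 22 of their target genes, 5 were called higher in the interaction and 0 lower (4.37% and 6.17% of all genes). In 15 of the 22 (68.2%, background 19.5%), the 3 shMCM7 Dox libraries lay above all others. The list's median level, relative to parental noDox, was 0.63, 0.64 and 0.68 in shMCM7 Dox, 0.33, 0.22 and 0.28 in shMCM7 noDox and 0.057 to 0.14 in parental Dox, on the log2 scale. The uninduced shMCM7 cells thus lay between the parental and the induced cells. Of the 22, 3 were called higher in shMCM7 noDox than in parental noDox (2.04% of all genes in either direction). FJX1, a Golgi-secreted growth regulator, had an interaction of 1.01 ± 0.12 (adjusted p = 5.9e-05), and AXL, a receptor tyrosine kinase, 0.65 ± 0.11 (adjusted p = 0.000612). The call of AXL was lost without shMCM7 Dox replicate 3 (0.56), and the count of 5 fell to 3 there.

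In the genes of the integrated stress response the arms pointed opposite ways. Of 31 such genes tested, 13 were called lower in the interaction and 0 higher (6.17% and 4.37% of all genes). In shMCM7 cells, 8 were called lower with Dox and 0 higher (6.55% and 5.58% of all genes). In parental cells, none passed the adjusted test, but 26 had an effect above 0, and 11 were higher and 0 lower at an unadjusted p under 0.05 (background 4.36% and 2.72%). The median Dox effect of the list was -0.32 in shMCM7 cells and 0.18 in parental cells, beside 0.0046 and 0.0031 over all genes. Without shMCM7 noDox replicate 1, 12 were called lower in the interaction. The parental part of the pattern leaned on parental noDox replicate 3: without it, 5 genes were higher at an unadjusted p under 0.05 and the parental median was 0.079, and the interaction called 9.

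The largest interaction of this group was that of an amino acid carrier. SLC7A5, the light chain of the large neutral amino acid transporter, was at 501.2, 450.9 and 396.3 CPM in shMCM7 Dox, 1423.6, 1617.4 and 1125.1 CPM in shMCM7 noDox, 1786.9, 1680.1 and 1256.1 CPM in parental Dox, and 1707, 1414.8 and 1049.7 CPM in parental noDox. Replicate 3 was the lowest of each group, the 3 induced libraries lay below all others, and the 9 others overlapped. The interaction of SLC7A5 was -1.81 ± 0.24 (adjusted p = 0.000153), and its parental effect 0.18 ± 0.17 did not pass (unadjusted p = 0.314). SLC3A2, the heavy chain of the same transporter, had an interaction of -1.21 (adjusted p = 0.000853). GDF15, a stress-induced cytokine, was at 20.1 to 32.5 CPM in shMCM7 Dox, 45.1 to 75.1 CPM in shMCM7 noDox, 57.1 to 88.7 CPM in parental Dox and 48.7 to 58.6 CPM in parental noDox, with an interaction of -1.62 ± 0.29 (adjusted p = 0.00108). SLC3A2, GDF15 and the genes of the next paragraph other than GPT2 and NUPR1 are outside the rule for named genes and were chosen after their values were seen.

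Of the 81 opposed genes that were lower in shMCM7 Dox, 5 were in this list: ATF4, AARS1, TRIB3, CBS and GPT2. ATF4, the transcription factor at the centre of the response, was at 282.8, 279.6 and 310.4 CPM in shMCM7 Dox, 394.5, 396.7 and 378.6 CPM in shMCM7 noDox, 401.7, 391.1 and 406.3 CPM in parental Dox, and 349.8 ± 29.8 CPM (SD, n = 3) in parental noDox. The 3 parental Dox libraries lay above the 3 parental noDox libraries, and the 3 induced shMCM7 libraries lay below all other 9. The Dox effect on ATF4 was -0.42 in shMCM7 cells (adjusted p = 8.79e-05) and 0.19 in parental cells (unadjusted p = 0.00725), giving an interaction of -0.62 (adjusted p = 0.000198). GPT2, an aminotransferase that makes alanine, was at 81.1, 81.3 and 92.3 CPM in shMCM7 Dox, 127.3, 135.5 and 116.6 CPM in shMCM7 noDox, 136.7, 134.3 and 138 CPM in parental Dox, and 120.6, 126 and 106.6 CPM in parental noDox (interaction -0.79 ± 0.1, adjusted p = 0.000107). AARS1, which charges the alanine tRNA, the pseudokinase TRIB3 and the cystathionine synthase CBS had parental effects of 0.18, 0.18 and 0.47 (unadjusted p = 0.0285, 0.0425 and 0.00727). NUPR1, a stress-induced chromatin protein, was placed as parental-led, at 14.4, 12.9 and 19.2 CPM in parental Dox and 9.06, 10.7 and 8.08 CPM in parental noDox, while its levels of 9.8 to 16.2 CPM in shMCM7 Dox overlapped the 11.4 to 16.2 CPM of shMCM7 noDox. Its interaction of -0.84 ± 0.27 (adjusted p = 0.0284) was not called without any 1 of 6 libraries, parental Dox replicate 3, parental noDox replicates 1 or 3, shMCM7 Dox replicates 1 or 2, or shMCM7 noDox replicate 2, at -0.83 to -0.66.

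**Figure D3:**
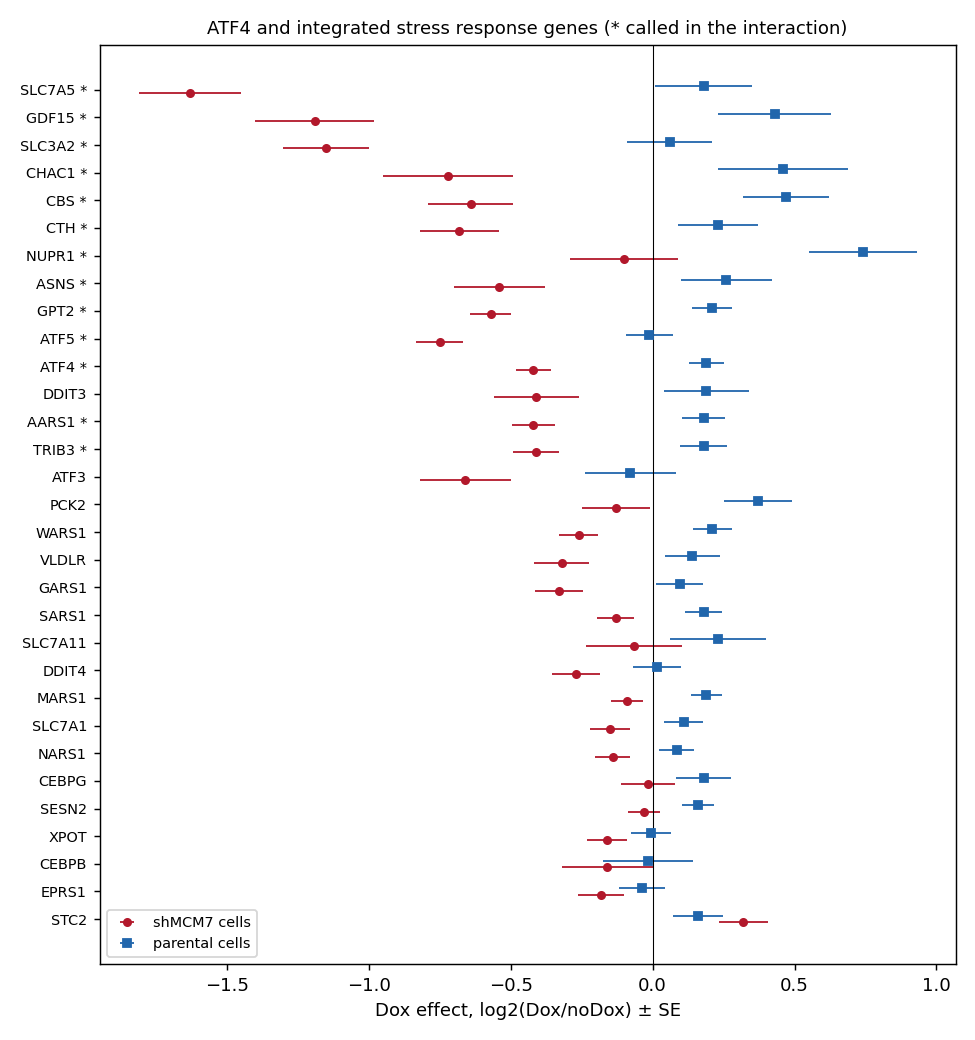
The Dox effect, log2(Dox/noDox) ± SE (x axis), of the 31 ATF4 and integrated stress response genes in shMCM7 cells (circles) and parental cells (squares), ordered by the interaction, with an asterisk where the interaction was called. Most circles lie left of 0 and most squares right of it, with STC2 at 0.32 in shMCM7 cells.

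ATF4 is known to drive several enzymes of one-carbon metabolism. Of 18 such enzymes tested, 5 were called lower in the interaction and 0 higher (6.17% and 4.37% of all genes). In parental cells 4 were higher and 0 lower at an unadjusted p under 0.05 (background 4.36% and 2.72%). The list's median parental effect was 0.071, and 0.022 without parental noDox replicate 3. MTHFD2, a mitochondrial folate dehydrogenase (chromosome 2, 74198562 to 74217565), was at 77.1, 79.5 and 77.5 CPM in shMCM7 Dox, 213.3, 380.3 and 317.6 CPM in shMCM7 noDox, 408.4, 354.2 and 356 CPM in parental Dox, and 323.3, 343.5 and 259 CPM in parental noDox. The parental Dox libraries lay above the parental noDox libraries and the induced shMCM7 libraries far below all others. Its interaction of -2.23 ± 0.22 (adjusted p = 1.86e-05) was the largest of the list, and its parental effect of 0.27 did not pass (unadjusted p = 0.0989). MTHFD2 overlaps SLC4A5 on the other strand. PSAT1, an enzyme of serine synthesis, was at 143.7 to 156.9 CPM in shMCM7 Dox and at 288.2 to 417.1 CPM in the other 9 libraries (interaction -1.39 ± 0.15, adjusted p = 3.94e-05). PHGDH, the first enzyme of that pathway, which is outside the rule for named genes, was placed as opposed, with -0.39 in shMCM7 cells and 0.25 in parental cells.

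Promoters of these genes are shown because ATF4 binds a known element whose core is TGATGNA (N is any base). RefSeq promoters (GRCh38.p14, 250 bases before to 50 after the start) matched 12475 of the genes tested, and on either strand the core was found in 8 of 28 promoters of the stress response list (28.6%) and 3 of 12 of the one-carbon list (25%), against 5.52% of all promoters. The matches below are 28-base windows of 6 called members of these lists, chosen among those with a match, with the core in capitals, which reads TNCATCA where it lies on the other strand.
CHAC1: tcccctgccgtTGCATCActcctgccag
ASNS: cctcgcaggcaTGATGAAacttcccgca
SLC3A2: aatgtgcaggactcctTACATCAgctcc
AARS1: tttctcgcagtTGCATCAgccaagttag
PHGDH: tcagataTGCATCAgctagtcagcgtaa
MTHFD1L: gccgccggctcTGATGCAatcgcgccgg
The windows lie at chr15:40953252-40953279 (plus strand), chr7:97872460-97872487 (minus), chr11:62881721-62881748 (plus), chr16:70289676-70289703 (minus), chr1:119711684-119711711 (plus) and chr6:150866346-150866373 (plus), in the order of the sequences. Over all genes called lower in the interaction that had a promoter, the core was in 44 of 741 (5.94%), which is close to the share over all promoters. A match is a description of the letters and not a binding site.

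Of 40 genes of mitosis and the G2/M phase, 9 were called lower in the interaction and 0 higher (6.17% and 4.37% of all genes). In shMCM7 cells, 12 were called lower (6.55% of all genes). Leaving out shMCM7 noDox replicate 1 gave 12 lower interaction calls. In 34 of the 40 (85%, background 21.3%), the 3 induced libraries lay below all other 9. In parental cells, 8 were lower and 2 higher at an unadjusted p under 0.05 (background 2.72% and 4.36%). The count of lower genes was 2 without parental Dox replicate 2, 4 without parental Dox replicate 3 or parental noDox replicate 2, and 13 without parental Dox replicate 1. The list's median Dox effect was -0.5 in shMCM7 cells and -0.052 in parental cells.

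KIF2C, a kinesin that takes microtubules apart at kinetochores, had the smallest interaction p-value of this list. It was at 50.9, 55.8 and 50.6 CPM in shMCM7 Dox, 110.8, 121.3 and 125.4 CPM in shMCM7 noDox, 123.7, 118.9 and 119.4 CPM in parental Dox, and 122.2, 116 and 115.5 CPM in parental noDox. The 9 libraries other than shMCM7 Dox spanned 110.8 to 125.4 CPM, and the interaction was -1.22 ± 0.079 (adjusted p = 1.85e-06). FOXM1, a transcription factor of the G2/M programme, was at 153.6, 171.1 and 162.6 CPM in shMCM7 Dox, 277.9 to 302.1 CPM in shMCM7 noDox, 294.7 to 298.6 CPM in parental Dox and 260.5 to 280.9 CPM in parental noDox. It was placed as opposed, with a parental effect of 0.12 (unadjusted p = 0.0405) and an interaction of -0.94 ± 0.074 (adjusted p = 5.56e-06). CENPE, a kinetochore motor, was amplified, with -0.84 in shMCM7 cells and -0.18 in parental cells. AURKB, the kinase of the chromosome passenger complex, was the other opposed member. FOXM1 overlaps ITFG2 on the other strand.

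Mitotic promoters are shown because the cell cycle homology region (CHR), TTTGAA or TTTAAA, is known to direct G2/M transcription. TTTGAA was found on either strand in 23 of 34 promoters of the mitotic list (67.6%, against 10.3% of all promoters) and TTTAAA in 14 (41.2%, against 8.23%). The windows below are of genes called lower in the interaction, with the match in capitals.
PLK1: ccagcgccgcgTTTGAAttcggggagga
KIF4A: tccgggacggaTTTGAAacttggcggtt
CCNB1: gcagtgcggggTTTAAAtctgaggctag
KIF2C: tgcgcgcgggaTTTAAActgcggcggtt
The windows lie on the plus strand at chr16:23678849-23678876, chrX:70290059-70290086, chr5:69167109-69167136 and chr1:44739823-44739850. Over all genes called lower, TTTGAA was in 11.6% of promoters and TTTAAA in 9.45%, near the shares over all promoters.

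**Figure D4:**
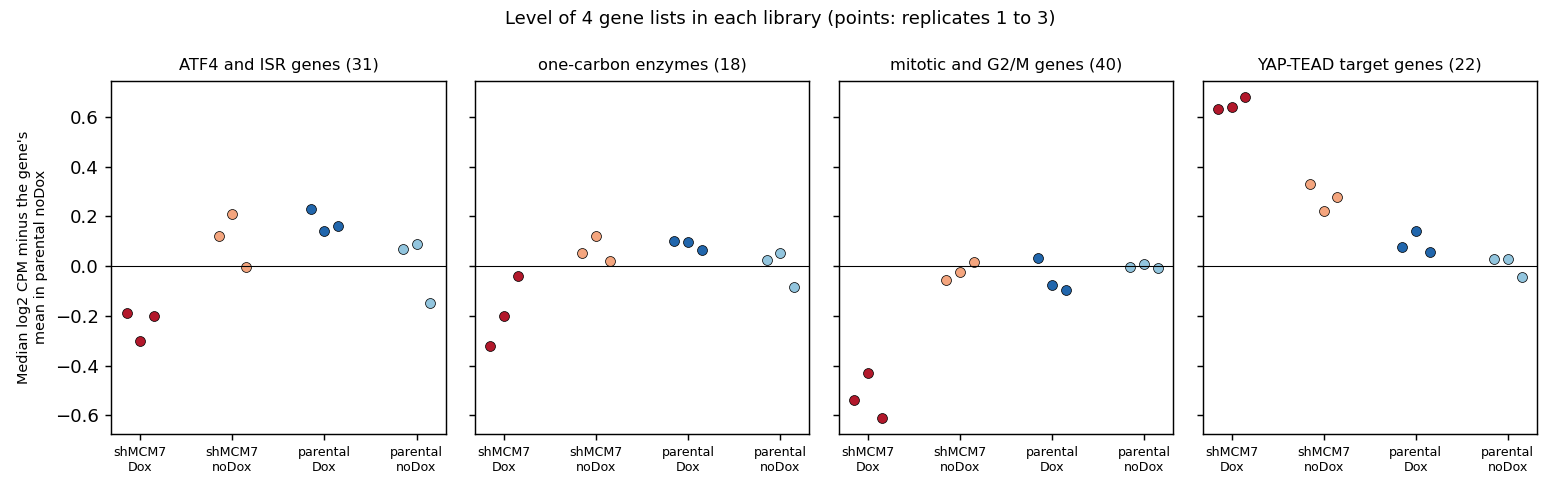
The median level of 4 gene lists in each library (y axis, median over genes of log2 CPM minus the gene's mean in parental noDox) by group (x axis), with 1 point per library, replicates 1 to 3 from left to right. The shMCM7 Dox libraries lie at -0.61 to -0.43 for the mitotic genes and at 0.63 to 0.68 for the YAP-TEAD targets, and the parental Dox libraries lie at 0.14 to 0.23 for the stress response genes, above the -0.15 to 0.09 of parental noDox.

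The licensing genes that act with MCM7 gave few calls. Of 29 genes of the MCM helicase, licensing and origin firing, MCM7 was the 1 called lower and 0 were called higher, although 25 had an interaction below 0 and the list's median was -0.24. The shMCM7 Dox libraries lay below all other libraries in 21 of the 29 (72.4%, background 21.3%) and above them in 0 (background 19.5%). Of 30 E2F target genes of the G1/S transition, 3 were called lower and 0 higher. Over all genes, 6.17% were called lower and 4.37% higher. TK1, the thymidine kinase, was opposed, at 112.5, 115.2 and 117.7 CPM in shMCM7 Dox, 177.1, 161.8 and 164.2 CPM in shMCM7 noDox, 182.7, 173.3 and 162.1 CPM in parental Dox, and 160.9, 142.2 and 152 CPM in parental noDox (interaction -0.73 ± 0.083, adjusted p = 4.61e-05). RFC3, a subunit of the clamp loader, had -0.89 ± 0.092 (adjusted p = 2.75e-05) and a parental effect of 0.1 (unadjusted p = 0.141).

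The opposed genes that were higher in shMCM7 Dox had a median Dox effect of 0.526 there and of -0.271 in parental cells, and those that were lower had -0.584 and 0.211. CDH5, the cadherin of endothelial junctions, had the largest interaction of the named genes. It was at 6.45, 6.62 and 5.53 CPM in shMCM7 Dox, 0.889, 1.07 and 0.63 CPM in shMCM7 noDox, 0.298, 0.288 and 0.218 CPM in parental Dox, and 0.251, 0.656 and 0.461 CPM in parental noDox. The parental groups overlapped, since parental noDox replicate 1 lay within parental Dox, whereas the induced libraries lay far above all others, and the interaction was 3.64 ± 0.39 (adjusted p = 3.14e-05). Other markers of endothelial cells stayed low, with PECAM1 at most 0.429 CPM and VWF at most 0.995 CPM. IL37, a cytokine of the interleukin-1 family, was at 2.7 to 3.01 CPM in shMCM7 Dox, 1.06 to 1.91 CPM in shMCM7 noDox, 0.889 to 1.13 CPM in parental Dox and 1.39 to 1.5 CPM in parental noDox (interaction 1.58 ± 0.27, adjusted p = 0.000669). The stress peptide UCN, which overlaps TRIM54 on the other strand, and the histone gene H4C8 had 1.44 and 1.32. The integrin ITGA1 was at 323.7 to 371.3 CPM in shMCM7 Dox and at 180.9 to 252.7 CPM elsewhere (interaction 0.81 ± 0.12, adjusted p = 0.000207), and its parental groups overlapped. It overlaps PELO on the same strand.

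Among the opposed genes that were lower in shMCM7 Dox, CYP2S1, a cytochrome P450, was at 0.852 to 1.02 CPM there and at 1.79 to 2.73 CPM in the other 9 libraries, with a parental effect of 0.3 (unadjusted p = 0.0377) and an interaction of -1.66 ± 0.19 (adjusted p = 4.78e-05). The parental Dox and parental noDox levels of CYP2S1 overlapped. The calcium-binding S100P was at 4.13 to 5.24 CPM in parental Dox, above the 3 to 3.94 CPM of parental noDox, and at 1.67 to 2.06 CPM in shMCM7 Dox (interaction -1.44 ± 0.23, adjusted p = 0.000497). FAM166C and LYPD6B had -1.41 and -1.4, and for LYPD6B the induced libraries overlapped the others.

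The shared class held 21 genes, while the 509 undecided genes may hold more. Of the 17 shared genes that rose, 7 were also called higher in shMCM7 noDox than in parental noDox (41.2%, against 2.04% of all genes called in either direction). The parental effect that defines the class and this difference both subtract the parental noDox libraries. The share therefore follows in part from how the class was chosen. LPAR1, a receptor for lysophosphatidic acid, was at 13.1, 16.6 and 15.7 CPM in shMCM7 Dox, 7.99, 10.1 and 12 CPM in shMCM7 noDox, 4.6, 4.86 and 4.69 CPM in parental Dox, and 2.42, 3.69 and 3.66 CPM in parental noDox. The groups did not overlap within either arm, and shMCM7 noDox was above parental noDox by 1.63 (adjusted p = 3.78e-05). The Dox effect was 0.59 ± 0.16 in shMCM7 cells (adjusted p = 0.0073) and 0.54 ± 0.16 in parental cells (unadjusted p = 0.00561), with an interaction of 0.052 ± 0.23 (adjusted p = 0.886). Missing the threshold does not show that the 2 effects were equal. KISS1, which encodes the metastasis suppressor peptide kisspeptin, was at 8.27, 8.3 and 13.3 CPM in shMCM7 Dox, 4.48 to 6.41 CPM in shMCM7 noDox, 1.55 to 2.47 CPM in parental Dox and 1.35 to 1.54 CPM in parental noDox, with effects of 0.91 and 0.53. TMEM52B and the kinesin KIF17 rose by 0.81 and 0.72 on the log2 scale in shMCM7 cells, with parental effects of 0.77 and 0.48. IL12A, a subunit of interleukin-12, fell by 0.59 on the log2 scale in shMCM7 cells and had a parental effect of -0.27.

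The 6 amplified genes that fell held cytokines. CXCL8, the neutrophil attractant interleukin-8 (chromosome 4, 73740506 to 73743716), was at 19.8, 18.6 and 15.1 CPM in shMCM7 Dox, 43.6, 36.6 and 40.6 CPM in shMCM7 noDox, 30.8, 25.5 and 29.8 CPM in parental Dox, and 36.3, 35.8 and 38.2 CPM in parental noDox. Dox libraries lay below noDox libraries in both arms without overlap, by -1.18 ± 0.099 in shMCM7 cells (adjusted p = 1.05e-06) and -0.36 ± 0.097 in parental cells (unadjusted p = 0.00248), and the interaction was -0.82 ± 0.14 (adjusted p = 0.000702). IL1A, an alarm cytokine that induces CXCL8, followed the same order, at 3.6 to 4.35 CPM in shMCM7 Dox, 9.65 to 10.4 CPM in shMCM7 noDox, 6.49 to 7.38 CPM in parental Dox and 7.56 to 9.28 CPM in parental noDox (interaction -1.11 ± 0.14, adjusted p = 8.58e-05). The oxidase AOX1, the growth factor PDGFB and the ion channels ASIC2 and KCND3 were amplified in the upward direction, with interactions of 0.99, 0.95, 0.99 and 1.4. KCND3 was not called without any 1 of 6 libraries (parental Dox replicate 1, parental noDox replicates 2 or 3, shMCM7 Dox replicates 2 or 3, or shMCM7 noDox replicate 3), at 1.18 to 1.39.

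The parental-led genes were mostly low in expression. CDC42EP1, an effector of the GTPase CDC42, was at 10.5, 10.9 and 10.5 CPM in parental Dox and 8.86, 6.89 and 6.12 CPM in parental noDox, but at 10.3 to 14.3 CPM in shMCM7 Dox and 14.7 to 17.7 CPM in shMCM7 noDox (interaction -0.87 ± 0.19, adjusted p = 0.00373). Its uninduced shMCM7 level was higher than the parental one by 1.11 (adjusted p = 0.000208), as in 7 of the 18 parental-led genes that rose. That count follows in part from the choice of the class, since both differences subtract the parental noDox libraries. EIF5AL1 and LUZP6 were named by the rule but share sequence or position with EIF5A and MTPN, so that their counts are uncertain.

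Among the organelle and ribosome lists, the nuclear-encoded respiratory chain subunits had 1 call lower among 76, COX6A1 (-0.69 ± 0.067, adjusted p = 1.57e-05), which overlaps another gene on the same strand, and 15 were higher and 3 lower in parental Dox at an unadjusted p under 0.05, a limit that 4.36% and 2.72% of all genes passed. The mitochondrial ribosome had 0 calls among 77 genes by edgeR's quasi-likelihood test, with 4 higher and 8 lower in parental Dox at that limit. The cytosolic ribosomal proteins had 0 calls among 75 genes, with 15 higher and 1 lower in parental Dox at that limit. In shMCM7 cells at the same limit, 41 cytosolic ribosomal genes were higher with Dox and 2 lower. There, 3 respiratory chain subunits were higher and 33 lower, and 7 and 22 genes of the mitochondrial ribosome. Over all 16334 genes these counts were 4204 and 4448. Of the 13 mitochondrially encoded proteins, MT-ND6, the one encoded on the light strand, was called higher, at 384.7, 359.7 and 313.9 CPM in shMCM7 Dox, 148.4, 94.2 and 83.4 CPM in shMCM7 noDox, 177.4, 105.6 and 114.6 CPM in parental Dox, and 156.3, 146.4 and 171.4 CPM in parental noDox (interaction 1.95 ± 0.28, adjusted p = 0.000254), while the other 12 were not. Without strand information, MT-ND6 reads cannot be told apart from reads of the transcript that runs across it.

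The remaining lists gave calls in both directions or few. Over all genes, 4.37% were called higher and 6.17% lower. The lower counts of the heat shock and actin lists and the higher count of the interferon list were no more frequent than that. The lower count of the glycolysis and hypoxia list was near it. Of 24 cholesterol genes, 4 were called lower and 0 higher, among them the sterol carrier STARD4 (-0.82 ± 0.1, adjusted p = 9.5e-05). In 17 of these 24 (70.8%, background 21.3%) the shMCM7 Dox libraries lay below all other libraries, and in 2 above them (8.33%, background 19.5%). Of 24 NRF2 pathway genes, 3 were called higher, led by the taurine carrier SLC6A6, and 3 lower, among them KEAP1, the sensor that holds NRF2 down. SLC6A6, which overlaps GRIP2 on the other strand, was at 220 to 233.6 CPM in shMCM7 Dox and 100.7 to 118.2 CPM in the other 9 libraries (interaction 1.04 ± 0.078, adjusted p = 5.36e-06), and KEAP1 had -0.66 ± 0.083 (adjusted p = 9.53e-05). Of 13 genes of the RNA interference machinery, the small RNA nuclease DICER1 and the silencing scaffold TNRC6A were called higher (0.68 and 0.74) and the DICER1 partner TARBP2 lower (-0.63). The chaperone HSP90AA1, which overlaps WDR20 on the other strand, was the 1 gene called among 24 of the heat shock and unfolded protein lists (-0.83 ± 0.1, adjusted p = 8.85e-05). The lower NRF2 count was 1 without shMCM7 noDox replicate 1. The interferon list had 1 gene called higher and 4 lower among 35, the NF-kB list 1 and 3 among 22, the glycolysis and hypoxia list 0 and 2 among 28, the melanocyte list 1 and 3 among 20, and the actin list 0 and 1 among 35. Without shMCM7 noDox replicate 1, the higher and lower counts were 0 and 5 for interferon, 1 and 1 for glycolysis and hypoxia, 2 and 3 for melanocyte genes and 1 and 1 for actin.

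**Figure D5:**
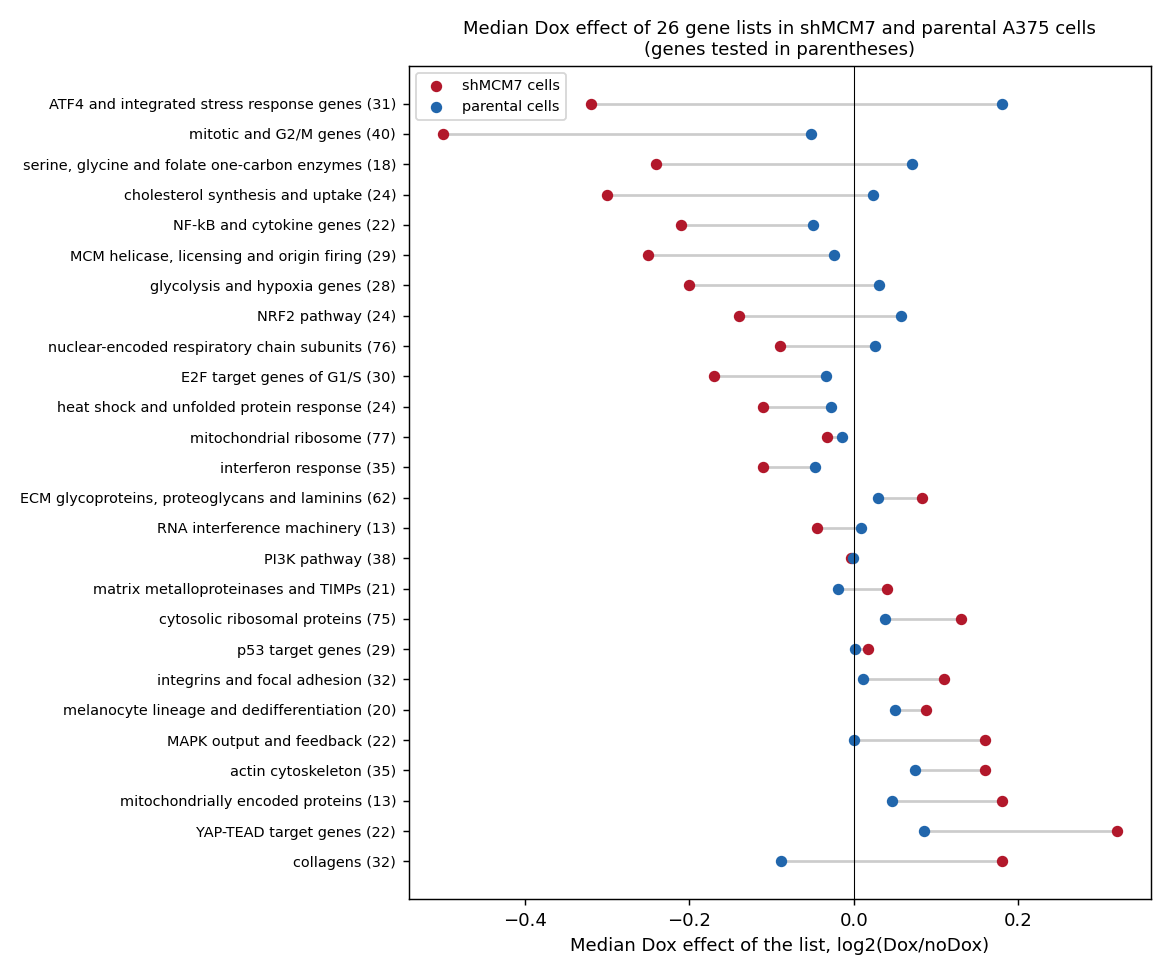
The median Dox effect, log2(Dox/noDox) (x axis), of the 26 gene lists (y axis, genes tested in parentheses) in shMCM7 cells (red) and parental cells (blue), ordered by the median interaction. The stress response list has medians of -0.32 and 0.18 on either side of 0, the mitotic list has -0.5 and -0.052, and the YAP-TEAD list has 0.32 and 0.086.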

How the data were processed

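Counts per gene were made by the authors and deposited as raw whole numbers, 1 table per library. The submitters' processing notes name bcl2fastq 2.19, Trimmomatic, STAR 2.7.1, featureCounts and edgeR with build GRCh38.p10. The strand setting is not given in the sources used here. Names and positions came from GENCODE 29 (21349 of 21386 identifiers). Counts were analysed in R 4.3.3 with edgeR 4.0.16 (filterByExpr, TMM, glmQLFit, glmQLFTest, 1 mean per group) and Python 3.11.15. CPM values are TMM-scaled, and list levels used log2 CPM with a prior count of 2. Standard errors were derived from the fold change and the F statistic. Depth was 146656792 to 283721575 counts per library, and limits from counts cover counting error only. No set test was run. The steps were tested on simulated data.

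The response classes, the 26 gene lists and the members were chosen with earlier results of these data known. Named genes were MCM7, the largest interactions of each class and direction (6 for shRNA-dependent, 4 for the other classes), and list members. Shared genes were ranked by the smaller of both effects. The genes picked by class were protein-coding with at least 1 CPM in the highest group. From each list and direction, the 2 genes called in the interaction with the smallest p were taken at any level. PIK3R2, PIK3R3, TIMP2 and MMP3, which the study names, were added. That gave 96 genes. Replicates of a group differed beyond sampling noise (chi-square per degree of freedom 21.3 to 108). Alternatives were DESeq2 1.42.0 (size factors and Wald test), the likelihood ratio test, other filters and thresholds, a replicate block, fits of 6 libraries, and leaving out libraries. Some results are not reported here.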

Additional observations from a re-analysis of the deposited data

Results flagged for a closer look

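Of the 96 named genes, 91 were called in the interaction (edgeR, quasi-likelihood), against 10.5% of all genes tested. This follows from the choice, since most of them were named because they were called in the interaction. MCM7, the targeted gene, is listed with an interaction of -1.92. The 15 named genes placed as opposed are listed because the arms had effects of opposite sign and the test of their difference passed. Those higher in shMCM7 Dox were CDH5 (3.64), IL37 (1.58), UCN (1.44), H4C8 (1.32) and ITGA1 (0.81). Those lower there were CYP2S1 (-1.66), S100P (-1.44), FAM166C (-1.41), LYPD6B (-1.4), FOXM1 (-0.94), ALDOC (-0.84), GPT2 (-0.79), TK1 (-0.73), COX6A1 (-0.69) and AKR1C2 (-0.59). AKR1C2 lies at the fold limit and has close paralogs, so that its value is uncertain, and it was not called without any 1 of 6 libraries (parental Dox replicates 1 or 2, parental noDox replicate 2, shMCM7 Dox replicate 3, shMCM7 noDox replicates 1 or 3), at -0.58 to -0.52. In each of the 15 genes the parental effect alone missed an FDR of 0.05 by the quasi-likelihood test. Single outlying libraries were not tested in these groups of 3.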

How the results depend on the processing

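The interaction of MCM7 stayed between -2.25 and -1.7 when single libraries were left out, and counts of calls moved most with the fold limit. With an FDR limit alone the interaction called 2204 genes higher and 2691 lower, Dox in shMCM7 cells 3610 and 3869, and the classes held 4334 shRNA-dependent, 268 opposed, 68 amplified, 162 parental-led and 218 shared genes. With a test against a 1.5-fold change these were 89 and 184, 243 and 336, then 243, 26, 1, 1 and 3. With a 2-fold limit there were 492 shRNA-dependent, 40 opposed, 2 amplified and 8 shared genes. With the parental effect held to an FDR of 0.05 by the quasi-likelihood test, the opposed, amplified, parental-led and shared classes held 0. DESeq2's Wald test gave 28 amplified and 10 parental-led genes and 4 genes higher in parental Dox, the likelihood ratio test gave 6 such genes, and a minimum of 10 counts in every library gave 16 parental-led genes. Deviations of same-numbered replicates correlated at -0.0876 to 0.315 (mean 0.157, 13 of 18 over 0.1). All 3 pairs were over 0.1 between shMCM7 noDox and parental noDox and between shMCM7 Dox and parental noDox, but not within either arm (lowest 0.0229), and the labels name no shared batch, so that the block was not used in the main fit. A replicate block gave 783 interaction calls higher and 1091 lower, 175 opposed and 34 amplified genes, and 17 stress response genes higher in parental Dox at an unadjusted p under 0.05 in place of 11.

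Leaving out single libraries, or replicate 1 from every group, gave 0 to 1 genes called higher in parental Dox (1 without parental Dox replicate 3), 7 to 60 amplified, 68 to 225 opposed and 18 to 35 shared genes. The opposed class held 69 without parental Dox replicate 2, 68 without parental noDox replicate 2, 169 without parental noDox replicate 1 and 225 without replicate 1 of every group. The amplified class held 7 without parental Dox replicate 2, 8 without parental Dox replicate 3, 34 without shMCM7 noDox replicate 1 and 60 without replicate 1 of every group, and the shared class 35 without parental Dox replicate 1 and 33 without replicate 1 of every group. The interaction counts stayed at 629 to 822 higher and 862 to 1091 lower. The uncalled interactions of LPAR1 (-0.08 to 0.23) and TMEM52B (-0.22 to 0.34) changed sign. Of the named interaction calls, 56 were lost in the test against a 1.5-fold change. The causes were not tested. Depth limits low genes, such as many parental-led ones, more than others.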
